A study of Gallus gallus with 26 samples.

Results

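A chick breaks its shell with the complexus, a muscle at the back of the neck. The net change of its transcriptome over the last days sampled was measured as 4 libraries labelled embryonic day 21 (E21) against 5 libraries labelled embryonic day 19 (E19), that is 9 of the 26 libraries of the series. They were chosen by the day in the sample title, and all genes counted in them were kept. The 5 libraries of embryonic day 20 (E20) were used to place the day between them, and the 6 libraries each of embryonic days 15 and 17 (E15, E17) entered the fit that estimates the spread. All libraries are MARS-Seq libraries, an RNA counting method, of complexus muscle from broiler chickens (Gallus gallus), and no group carries a treatment or genotype label beyond the day. The sample labels name both later groups as embryonic days, whereas the series description lists hatch and chick placement after E19, and whether the birds of a library had hatched is not stated per sample. Whether the libraries came from separate birds is not stated, so a p-value here reflects spread among libraries that may be technical.

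The complexus is known as the hatching muscle. It enlarges towards the end of incubation, is used to lift the head and press the beak against the shell, and regresses after hatching. Genes are identified by versioned Ensembl identifiers that the deposited table does not pair with names, and none of its 8758 identifiers was found in a table of 25635 RefSeq chicken genes. The markers of muscle and of other cell types could therefore not be read, the labelled tissue could not be checked against them, and the account rests on groups of genes and on 4 identifiers. In whole muscle, fewer cells of a type and less RNA per cell cannot be told apart.

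Library totals ranged from 661931 to 2046622 counts at E21, from 632074 to 1373614 at E20 and from 580768 to 1106816 at E19. A count of 0 in 1 library allows up to 1.47 CPM (a count scaled to a common library size) in the deepest E21 library and up to 5.17 CPM in the shallowest E19 library, taking 3 counts as the limit. These floors and all counting intervals cover counting error only. The spread between libraries was smaller at E21. The biological coefficient of variation, a relative spread between libraries beyond counting error, was 18.2% at E21, 21.4% at E20 and 24.8% at E19 when each day was fitted alone.

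The question of the main comparison was which genes stood at another level at E21 than at E19. Of 5901 genes tested, 2448 (41.5%) differed, 1196 higher (20.3%) and 1252 lower (21.2%) at E21. The call was an adjusted p under 0.05, from edgeR's quasi-likelihood test with Benjamini-Hochberg adjustment over all genes tested. The median log2 fold change was 1.06 among the higher genes, −1.14 among the lower genes and 0.01 over all genes tested. Of the called genes, 1384 (23.5% of those tested) differed at least 2-fold, 659 higher (11.2%) and 725 lower (12.3%). On this scale the larger changes were more often falls, as 130 were at least 4-fold higher and 225 at least 4-fold lower, and 17 were at least 16-fold higher and 26 at least 16-fold lower.

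The libraries of the 2 days did not overlap for most called genes. Over all genes tested, 29.4% had no overlap between the 4 E21 and the 5 E19 libraries, and among called genes these were 845 of the 1196 higher and 811 of the 1252 lower ones. Conversely, 80 genes without overlap did not pass the test, 51 with all E21 libraries above and 29 with all E21 libraries below those of E19.

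The balance of higher and lower genes rested on the scaling. The counts above use TMM factors, which take most genes as unchanged and lay between 1.22 and 1.33 at E21 and between 0.749 and 0.837 at E19. With library totals as the scale, the median over all genes tested shifted to a log2 fold change of 0.72, and 3281 genes were called higher and 442 lower. All 1196 genes called higher with TMM factors were also called higher with library totals. Of the 1252 lower genes, 442 were called lower on both scales and 59 turned to higher. Directions below are relative to the TMM scale unless stated otherwise.

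The counts themselves became less concentrated, a change that needs no scaling between libraries. The 20 genes ranked highest by counts in the whole series took 21.9%, 22.7%, 22.6% and 21.4% of the counts in the E21 libraries, against 44.0%, 42.2%, 41.9%, 42.6% and 44.7% in the E19 libraries. The 5 E20 libraries lay between 33.3% and 36.5%, apart from both other days. A share of 50% of the counts was held by 149, 138, 130 and 146 genes in the E21 libraries, against 37, 41, 44, 42 and 36 genes in the E19 libraries. At E20 it took from 68 to 79 genes. The mean share of the 20 genes dropped by 20.9 points, and the mean number of genes was 100.8 higher at E21. For each measure the exact two-sided permutation p was 0.0159, the smallest that 4 against 5 libraries allow, and the same after Benjamini-Hochberg adjustment over both tests. The 20 genes were ranked over all 26 libraries, only 4 of them of E21, so a lower share at E21 is partly built into this choice. The number of genes that hold 50% was counted within each library and is free of it.

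In shares of the counts, the loss was carried by few genes and the gain by many. As shares of the library totals, 325295 CPM moved between the day means, lost by 2062 genes and gained by 6652 genes of the deposited table. Shares sum to the same total in every library, so a loss in few genes raises the shares of otherwise unchanged genes. The 6652 are therefore no count of rising genes, and 1196 genes were called higher with TMM factors. A single gene gave 25.1% of the loss, 5 genes gave 50% of it and 21 genes gave 80%. On the side of the gain, 155 genes made up 50% and 941 genes made up 80%, and the largest contribution of a single gene was 5.61%. The 5 genes that led the loss, chosen by this difference and given as a description, held 6.96% ± 0.358 of the counts at E21 (SD, n = 4), 17.3% ± 0.579 at E20 (SD, n = 5) and 24.0% ± 1.14 at E19 (SD, n = 5). In earlier muscle they had held 14.9% ± 1.34 at E15 (SD, n = 6) and 21.6% ± 1.44 at E17 (SD, n = 6).

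**Figure D1:**
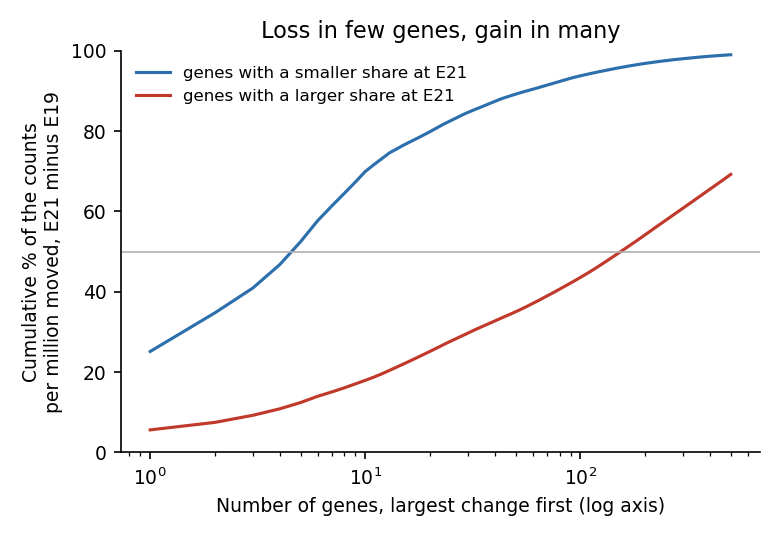
Cumulative percentage of the CPM that moved between the E19 and the E21 mean (y axis) against the number of genes, largest change first (x axis, log scale), for genes with a larger share at E21 in red and a smaller share in blue. The blue line passes 50% at 5 genes and the red line at 155 genes.

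On the TMM scale the direction of the calls also differed by abundance, with the 5901 genes tested sorted into 10 classes of equal size. Level was the mean over all 26 libraries, only 4 of them of E21. The sorting thus favoured genes that fall by E21 in the high classes and genes that rise in the low ones. Its part in the counts below was not tested. In the highest class, from 201 normalised CPM upwards, 109 genes were higher and 307 lower at E21, which are 18.5% and 52.0% of the class beside 20.3% and 21.2% of all genes tested. In the class below it, 149 genes were higher and 183 lower. In every one of the 8 lower classes more genes were higher than lower, from 91 against 80 in the lowest class to 173 against 142 in the eighth. The median log2 fold change was −0.36 in the highest class and lay between −0.04 and 0.14 in the others. In the lowest class 15.4% of the genes were called higher and 13.5% lower, and in the second class 14.1% and 11.9%. With library totals as the scale the direction of the highest class turned, with 310 genes higher, 116 lower and a median of 0.34. That median was still the lowest of the 10 classes, the others lying between 0.67 and 0.85, beside 0.72 over all genes tested.

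**Figure D2:**
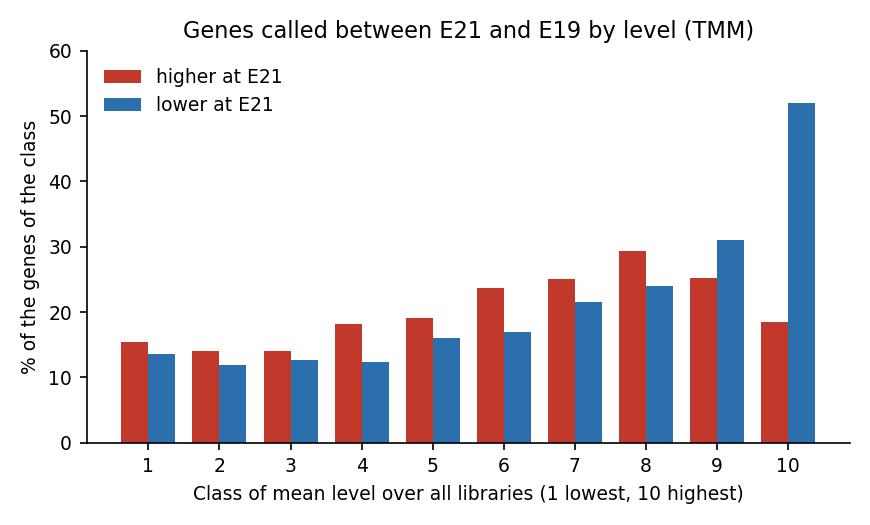
Percentage of genes called higher (red) and lower (blue) at E21 against E19 in 10 classes of mean level, from the lowest (1) to the highest (10), with TMM factors. Lower genes reach 52.0% of the highest class, and higher genes are the more numerous in classes 1 to 8; with library totals they are so in all 10 classes.

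Genes with the most counts were ranked over the whole series too, so this ranking likewise favours genes that fall by E21. Among the 20 genes with the most counts, 16 were lower at E21, 13 of them at least 2-fold, and 1 was higher. Their median log2 fold change was −1.68, beside 0.01 over all genes tested. Among the 100 genes with the most counts 77 were lower and 6 higher, and among the 500 with the most counts 281 were lower and 82 higher. The downward median thus shrank as less abundant genes were added, to −0.74 for 100 genes and −0.40 for 500 genes. With library totals as the scale the 20 genes kept a negative median of −0.98, with 14 lower and 6 higher. For the 100 genes it was −0.03, with 36 lower and 33 higher, and for the 500 genes it turned to 0.31, with 107 lower and 253 higher.

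Among the 1597 called genes that were without overlap and reached 10 CPM, the gene with the most counts in the series had the largest fall in level. All 4 named genes were chosen from these 1597, so lack of overlap and a low adjusted p were conditions of the choice. ENSGALG00000011086.5 had 28714, 27109, 28416 and 24128 normalised CPM in the E21 libraries, against 156628, 148952, 130652, 144540 and 162556 normalised CPM in the E19 libraries. No E21 library came near the lowest E19 library. The level averaged 27092 ± 2095 at E21 (SD, n = 4) and 148670 ± 12226 at E19 (SD, n = 5), which edgeR estimated as −2.46 on the log2 scale (SE 0.11), with a Benjamini-Hochberg adjusted p of 1.87e-17. The 5 E20 libraries stood between both days without overlap, at 86001 to 101742 normalised CPM. On the log2 scale only 27.1% of the way had been covered at E20, and E20 lay above the midpoint of E19 and E21 by 0.56 (SE 0.08, adjusted p = 3.44e-05, edgeR). The fall was thus larger in the second step, with a log2 fold change of −1.79 from E20 to E21 beside −0.67 from E19 to E20. With library totals as the scale the net log2 fold change was −1.75.

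The largest fall by fold belonged to a gene near the detection limit. ENSGALG00000033535.1 had 1, 0, 0 and 0 counts in the E21 libraries, against 9, 5, 32, 17 and 12 counts in the E19 libraries. At E20 it had 1 count in each of 2 libraries and none in the other 3. The E19 level of 22.1 ± 13.9 normalised CPM (SD, n = 5) varied between 5.75 and 37.5 in single libraries. On library totals, without TMM factors, the ratio of the pooled E21 rate to the pooled E19 rate was 0.0126. Its exact Poisson 95% limits were 0.000315 and 0.0724. The adjusted p of the net change in edgeR was 1.10e-07. Without E21 replicate 1, which held the single count, no E21 count remained, and the fitted log2 fold change, which is then no bound, was −7.62 beside −6.36 with all libraries.

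The largest rise in level among the same 1597 genes was that of ENSGALG00000004509.5, ranked 15 by counts over the series. It had 13733, 20400, 19635 and 15384 normalised CPM in the E21 libraries, against 5467, 4536, 4886, 4190 and 4837 normalised CPM in the E19 libraries. Every E21 library lay above every E19 library by more than 2-fold. The net rise was 1.85 on the log2 scale (SE 0.12), with a Benjamini-Hochberg adjusted p of 3.56e-14 in edgeR. At E20 the libraries held 9504 to 14432 normalised CPM, all above E19 and partly within the range of E21. This placed E20 at 76.2% of the way on the log2 scale, above the midpoint by 0.49 (SE 0.09, adjusted p = 0.000845, edgeR).

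The largest rise by fold was that of ENSGALG00000014616.5. It had 1689, 3024, 1244 and 2567 normalised CPM in the E21 libraries, against 2.76, 19.6, 2.34, 2.07 and 0 normalised CPM in the E19 libraries. The E20 libraries spread widely between these, with 120, 276, 493, 936 and 1883 normalised CPM, and the highest of them exceeded the lowest E21 libraries. The net rise was 8.42 on the log2 scale (SE 0.64), with a Benjamini-Hochberg adjusted p of 2.40e-12 in edgeR. E19 replicate 2 held 17 of the 22 E19 counts. Without that library the fitted value was larger, at 10.07, and rested on the 5 counts of the other E19 libraries, so the size of the rise is uncertain. E20 lay at 81.9% of the way on the log2 scale, above the midpoint by 2.69 (SE 0.43, adjusted p = 0.000112, edgeR). In normalised CPM the E20 mean of 741.5 was nearer to the E19 mean of 5.35 than to the E21 mean of 2131.

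**Figure D3:**
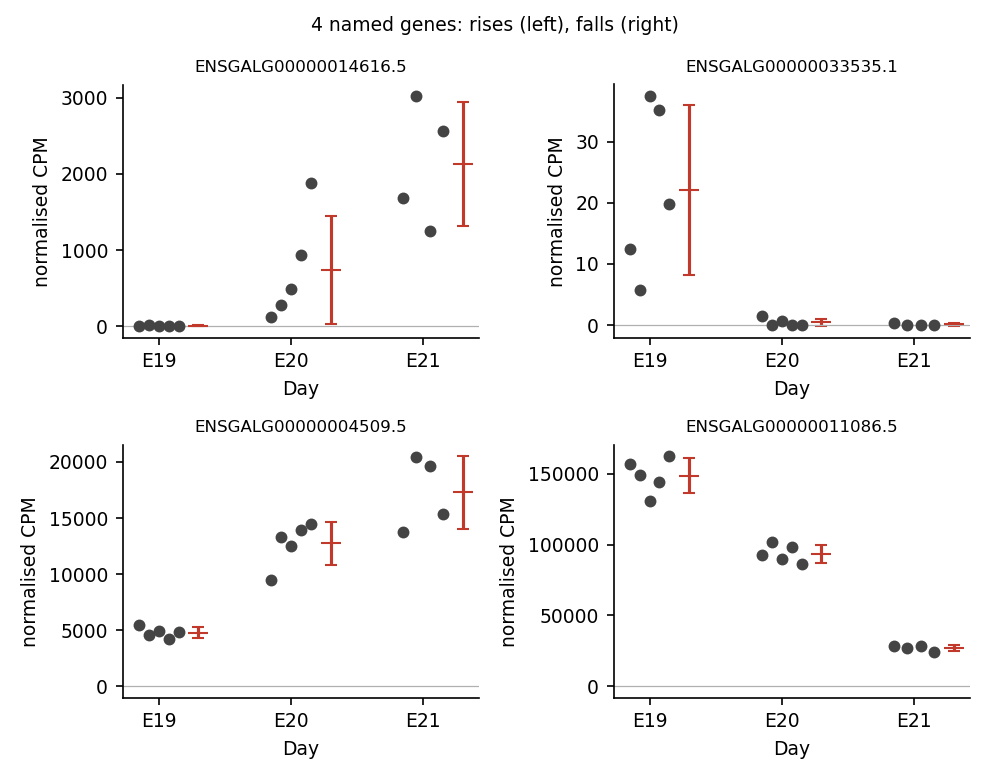
Normalised CPM (scaled with TMM factors, linear axes) of the 4 named genes in each library (points) at E19, E20 and E21, with mean ± SD in red. The E20 libraries of ENSGALG00000014616.5 run from 120 to 1883, while those of ENSGALG00000011086.5 lie between 86001 and 101742, apart from both other days.

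The second question was where E20 lies between E19 and E21. Each library was placed, in log2 CPM, on the straight line from the E19 mean to the E21 mean over all 5901 genes. The E19 mean stood at 0% and the E21 mean at 100%, and a library of these days was placed without its own values. The E20 libraries stood at 53.7%, 59.3%, 59.3%, 65.8% and 72.4%, a mean of 62.1% ± 7.18 (SD, n = 5). All of them were past the halfway point and none reached the E21 libraries, which lay between 88.9% and 101.7%. The E19 libraries lay between 6.21% and 10.2%. Libraries of the days before the window fell at the E19 end, with means of 11.4% ± 0.914 at E15 and 7.01% ± 1.46 at E17 (SD, n = 6 each). All 12 of them lay below 13%, beside at least 53.7% for the E20 libraries. Differences that lie off this line do not show in a position. A low position at E15 or E17 therefore does not mean a profile like that of E19.

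**Figure D4:**
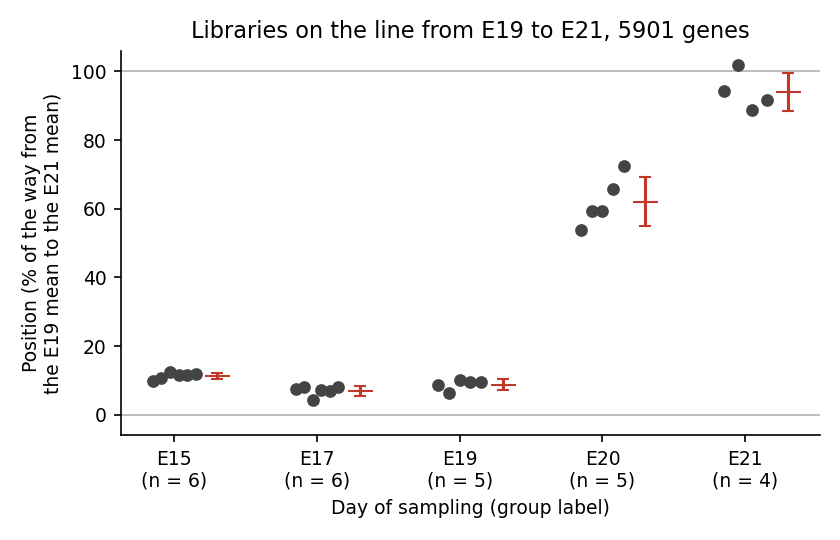
Position of each of the 26 libraries (points) on the line from the E19 mean (0%) to the E21 mean (100%), in log2 CPM. The line was drawn over 5901 genes, and libraries are shown by day with mean ± SD in red. The E20 libraries lie between 53.7% and 72.4%, and those of E15, E17 and E19 all lie below 13%.

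On the log2 scale, rising genes had covered more of their way at E20 than falling genes over all called genes. Among the most abundant this was hardly so. On this scale a gene midway in CPM lies past the midpoint if it rises and short of it if it falls. The part of this in the difference was not tested, and positions over these genes were not computed in CPM. Over the 1196 genes higher at E21 the E20 libraries stood at 70.6% ± 6.49 (SD, n = 5), and over the 1252 lower genes at 53.2% ± 8.34 (SD, n = 5). The difference had the same sign in 5 of 5 E20 libraries and averaged 17.4 points, between 14.2 and 19.1. With library totals as the scale it again had that sign in 5 of 5 libraries but averaged 10.3 points, between 2.28 and 21.4. By level, the median position of single genes was 62.9% for the 109 higher and 61.8% for the 307 lower genes of the highest class, and 60.03% for the higher and 57.88% for the lower genes of the class below it. In the lowest class it was 73.7% for the higher and 33.3% for the lower genes. The filter on low counts used the E20 libraries as well, so near its limit it favours genes high at E20. Its part in the positions of the lowest class was not tested. In the medians of single genes, the log2 fold changes of the higher genes were 0.70 from E19 to E20 and 0.34 from E20 to E21. Those of the lower genes were −0.60 from E19 to E20 and −0.51 from E20 to E21. These steps share their libraries with the net change and are given side by side as a description.

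Numbers of rises and falls were nearly equal in the first step, and falls were the more numerous in the second, on the TMM scale. From E19 to E20, 1621 of all genes tested (27.5%) differed in edgeR, 820 higher (13.9%) and 801 lower (13.6%) at E20, and 698 (11.8%) did so at least 2-fold, 411 higher (6.96%) and 287 lower (4.86%). From E20 to E21, 846 genes (14.3%) differed, 339 higher (5.74%) and 507 lower (8.59%) at E21. Of these, 350 (5.93%) did so at least 2-fold, 80 higher (1.36%) and 270 lower (4.58%). Which direction was the more numerous in the first step changed between settings, with 681 higher and 714 lower when only the libraries of E19, E20 and E21 were fitted and 763 higher and 867 lower in DESeq2. On library totals the balance turned in the second step, with 1702 genes higher and 245 lower at E21, and 1761 genes were higher and 328 lower at E20 than at E19.

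Whether E20 was off the halfway level was tested gene by gene, as E20 against the midpoint of E19 and E21 on the log2 scale. A changed gene that stands midway in CPM lies above this midpoint. That favours rises nearer to E21 and falls nearer to E19, and its part in the counts below was not tested. Of the 5901 genes, 560 (9.49%) lay off the midpoint at an adjusted p under 0.05 (edgeR with Benjamini-Hochberg), 366 above it (6.2%) and 194 below it (3.29%). The distance was at least 2-fold for 141 of them (2.39%), 109 above (1.85%) and 32 below (0.542%). Among the 1196 genes higher at E21, E20 was nearer to E21 for 185 and nearer to E19 for 9. Among the 1252 lower genes, it was nearer to E21 for 92 and nearer to E19 for 64. The other 1002 higher and 1096 lower genes did not pass this test, which does not show that their E20 level was halfway. For the same genes with library totals in this test, E20 was nearer to E21 for 169 and nearer to E19 for 15 of the higher genes, and for 98 and 62 of the lower genes. Where the higher and lower genes were also called anew with library totals, the counts were 233 and 110 for the higher genes and 42 and 37 for the lower genes. Among the lower genes the excess nearer to E21 turned without either of 2 libraries, to 60 nearer to E21 beside 70 nearer to E19 without E21 replicate 5, and to 66 beside 70 without E20 replicate 5. It was 58 beside 52 when only the libraries of E19, E20 and E21 were fitted, and 60 beside 46 with the replicate number as a block.

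By day means alone, on the log2 scale, E20 lay between these days and nearer to E21 for 669 of the higher genes (55.9%). It lay beyond E21 for a further 171. It lay nearer to E19 for 314 and beyond E19 for 42. Of the lower genes, 548 (43.8%) were between and nearer to E21, 159 beyond E21, 470 nearer to E19 and 75 beyond E19. On the log2 scale with TMM factors the contrast was wider in the subset that changed at least 2-fold. The median position of E20 was 72.7% for the 659 genes at least 2-fold higher and 48.8% for the 725 genes at least 2-fold lower. Over all called genes it was 67.7% for rises and 55.5% for falls. The subset leaned towards low levels. In the lowest level class it took in 90 of 91 rises and 80 of 80 falls. In the highest class it took in 50 of 109 rises and 117 of 307 falls. For the same position in CPM, log2 positions of rises and falls also lie further apart the larger the change. Size was thus not separated from level or from the log2 scale, and the part of each in the wider contrast was not tested.

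**Figure D5:**
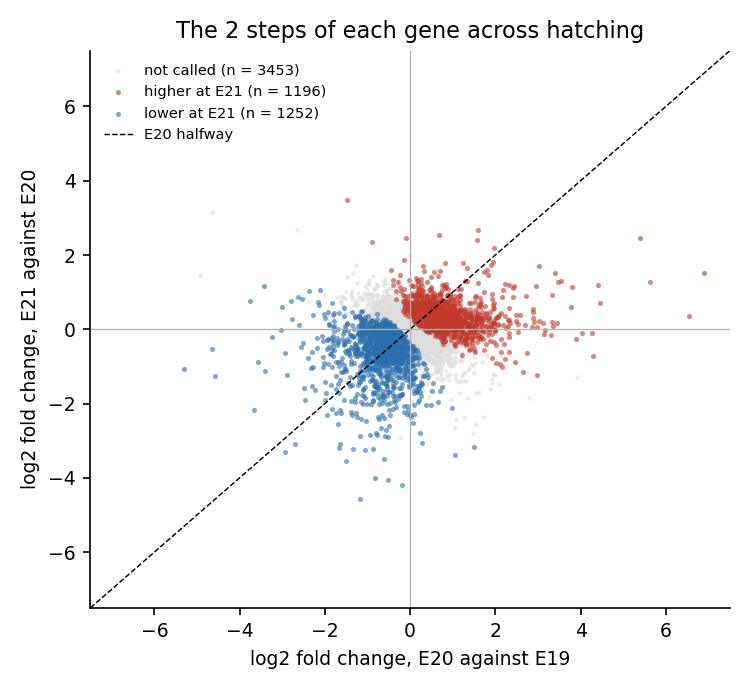
Log2 fold change of each gene from E20 to E21 (y axis) against that from E19 to E20 (x axis), for genes called higher at E21 than at E19 (red), lower (blue) or not called (grey). On the dashed line E20 lies halfway. The red cloud stretches along the x axis, with medians of 0.70 and 0.34, and the blue cloud follows both axes, with medians of −0.60 and −0.51.

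The ranges of the E20 libraries were also compared directly, on the TMM scale and for genes called by edgeR. Over all genes tested, 15.2% had every E21 library above every E19 library and 14.2% had every one below. Among the 845 called higher genes whose E21 and E19 libraries did not overlap, the E20 libraries were apart from E19 but not from E21 for 291. They were apart from E21 but not from E19 for 148, and apart from both for 67 (1.14% of all genes tested). Among the 811 such lower genes these counts were 231, 168 and 90, the last being 1.53% of all genes tested. For the remaining 339 higher and 322 lower genes the E20 libraries overlapped with both days. How many of all genes tested had E20 libraries apart from E19 only or from E21 only was not counted. The counts of such genes are therefore a description without a background.

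The falling genes among the 20 with the most counts were mixed in their E20 level. More of them were nearer to E19 on the log2 scale with TMM factors. For these 16 genes the median position of E20 was 43.2%, between 4.4% and 138.5% in single genes. Of them, 10 were nearer to E19 and 6 nearer to E21 or beyond it. The ranking by counts includes the E20 libraries and so favours genes still high at E20. Its part in these positions was not tested. In the test against the midpoint, 6 were nearer to E19 and 2 nearer to E21. Their median position was below the 61.8% of all 307 lower genes of the highest level class.

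Some genes differed at E20 without a net difference being called. Among the 3453 genes not called between E21 and E19, E20 was above the midpoint for 117 and below it for 93. Over all 5901 genes tested these counts were 366 (6.2%) and 194 (3.29%). Of the 3453, E20 passed the test against each of the other days for 46 genes that lay above both and 38 that lay below both. The median log2 fold changes of the 46 were 0.97 from E19 to E20 and −0.94 from E20 to E21, and those of the 38 were −0.75 and 0.72. Over all genes tested, 25 had every E20 library above every library of E21 and E19, and 22 had every E20 library below them, 0.424% and 0.373% of the genes.

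The third question was how the E21 levels compare with those before the window. The genes were chosen for their E21 level and the same E21 libraries are used again, so the counts are a description. Of the 1196 genes higher at E21 than at E19, 1104 (92.3%) had an E21 mean above both the E15 and the E17 mean. For 63 it lay between these means and for 29 below both. Of the 1252 lower genes, 1049 (83.8%) had an E21 mean below both earlier means, 132 lay between them and 71 above both. Over all 5901 genes tested, the E21 mean was above both for 42.6% and below both for 43.7%. With library totals as the scale, 1165 of the higher genes were above both, and of the lower genes 897 were below both and 216 (17.3%) above both, beside 56.6% above and 27.6% below over all genes tested. The comparison with E15 shares the E21 libraries with the net change: the median log2 fold change of the higher genes was 0.93 against E15 beside 1.06 against E19, and that of the lower genes was −0.93 against E15 beside −1.14 against E19.

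In the authors' deposited table, 917 genes carry a cluster number under a DESeq2 heading, with 5 clusters, and 903 of them were tested here. The clusters come from the same libraries and thus give no independent evidence on direction. Beside the 20.3% higher and 21.2% lower of all genes tested, 274 of 291 genes of cluster 5 were higher and none lower, with a median log2 fold change of 1.60. In cluster 2, 168 of 171 genes were lower and none higher, with a median of −1.99. Cluster 1 had 131 lower and no higher genes of 199 and a median of −1.28. Cluster 3 held 37 higher and no lower genes of 81, and cluster 4 held 8 higher and 77 lower genes of 161.

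The median steps are given for the clusters as a description. Cluster 5 had median log2 fold changes of 1.39 from E19 to E20 and 0.22 from E20 to E21. Cluster 4 had 0.04 in the first step and −0.86 in the second. Clusters 1 and 2 had negative medians in both steps, −0.69 and −0.65 in cluster 1 and −1.15 and −0.76 in cluster 2. Of the 5 clusters in the authors' deposited table under maSigPro, cluster 2 had 108 of 109 genes higher, and clusters 4 and 5 had all of their 47 and 24 genes lower. Cluster 1 had 2 higher and 89 lower genes of 115, and cluster 3 had 11 higher and 16 lower genes of 48.

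Many called genes belonged to neither set of clusters. Such genes made up 4998 of the 5901 genes tested (84.7%) and 1753 of the 2448 genes called between E21 and E19 (71.6%), 877 higher and 876 lower. Thus 35.1% of them were called, beside 41.5% of all genes tested. Among the 1753 genes, 376 were at least 2-fold higher and 393 at least 2-fold lower. The median position of E20 among them was 60.9% for the higher and 57.2% for the lower genes, a smaller gap than over all called genes.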

How the data were processed

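Per the file headers, the authors deposited raw counts per gene and library, whole numbers in 26 columns that were matched to the samples by title. They also deposited other numbers, of which the cluster numbers were used here. Tools named in the submitters' processing notes are STAR 2.7.10a and HTSeq 2.0.2, beside DESeq2. Build, annotation, strand and the handling of molecular identifiers were not given in the sources used here, so reads of near-identical or overlapping genes cannot be told apart. The comparison, lists and rules were chosen with earlier results of these data known.

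The counts were fitted in edgeR 4.0.16 (R 4.3.3; glmQLFit, glmQLFTest) with TMM factors, after filterByExpr by day (minimum count 10, minimum total 15) kept 5901 genes holding 99.2% of the counts. The model had a term for day and no other, took all 26 libraries (common biological coefficient of variation 19.2%), and its p-values were Benjamini-Hochberg adjusted across the 5901 genes. The SE is the absolute log2 fold change divided by the square root of the F statistic. Positions used log2 CPM with a prior count of 2. Exact permutation tests used scipy 1.17.1. The procedure was tested on simulated data with few changed genes, as many raised as lowered. A shift in scale like that between TMM factors and library totals was not simulated. No pair of replicates of a day held identical values, and the chi-square of their counts per degree of freedom was between 4.62 and 11.5. Of the 1597 called genes whose libraries did not overlap and whose mean on the higher day reached 10 CPM, the named ones have the largest fold and, among the others, the largest difference in CPM in each direction. Lists by gene symbol could not be applied. Alternatives were library totals, DESeq2 1.42.0, other filters, fewer days, the replicate number as a block and leaving out single libraries.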

Additional observations from a re-analysis of the deposited data

Results flagged for a closer look

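The highest or lowest library of a day was compared with its nearest neighbour in 21 groups of 4 or 5 libraries, a check that chance alone passes in about 1 of 20 groups. ENSGALG00000014616.5 stood at 19.6 normalised CPM in E19 replicate 2, from 17 counts, whereas the other 4 E19 libraries lay between 0 and 2.76. ENSGALG00000033535.1 stood at 0.371 normalised CPM in E21 replicate 1, from 1 count, whereas the other 3 E21 libraries held none. A single count among zeros is always picked out by this check, so the chance rate does not apply to it.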

How the results depend on the processing

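The net change between E21 and E19 held 2338 genes with the replicate block, beside 2448 without it. In the other comparisons the block lowered the numbers called, from 1621 to 1475 for E20 against E19 and from 846 to 652 for E21 against E20. For E20 against the midpoint the number dropped from 560 to 374. No pairing by number was seen: deviations of same-numbered E21 and E19 libraries correlated between -0.0596 and 0.000596 across genes. Those of other pairs correlated between -0.065 and 0.0893, and none of the 4 E21 libraries correlated best with its own number. With all correlations this small, the check cannot exclude a pairing. Leaving out single libraries gave 2148 to 2387 genes for E21 against E19, 1320 to 1391 at least 2-fold, 1454 to 1558 for E20 against E19, 577 to 814 for E21 against E20 and 439 to 608 for E20 against the midpoint. Fitting only the E19 and E21 libraries gave 1959 genes, and DESeq2 gave 2432, 1107 higher and 1325 lower. With library totals 3723 genes differed between E21 and E19, 2330 of them at least 2-fold, and 1947 between E21 and E20. With totals of the counts outside the 20 most abundant genes, chosen after seeing the data, 1867 genes were higher and 860 lower at E21. With a minimum count of 30, 912 of the 3647 genes then tested differed at least 2-fold. For genes higher at E21 with E20 nearer E19, the count of 9 became 110 with library totals, 26 with totals outside the 20 most abundant genes, 16 with a minimum count of 30, 14 with DESeq2, 5 with only the E19, E20 and E21 libraries and 5 with the replicate block. For genes lower at E21, those with E20 nearer E21 became 42 with library totals, 58 with only the 3 days and 60 with the block, and those nearer E19 became 37 with library totals. Without single libraries, higher genes nearer E21 numbered 138 to 197 and nearer E19 7 to 13, and lower genes nearer E21 numbered 60 to 104 and nearer E19 51 to 74. In these counts the genes called between E21 and E19 were chosen anew under each setting. The cause was not tested. The position of E20 ranged from 60.5% to 63.2% without single libraries and was 57.9% with library totals. The share of the 20 genes fell by 20.5 to 21.2 points, and 98 to 104.3 more genes held 50% of the counts, without single libraries. ENSGALG00000033535.1 did not pass the filter when only the E19 and E21 libraries were fitted, so no value was had there. At this depth, levels under 5.17 CPM could go uncounted in the shallowest E19 library.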

Other observations

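The spread of log2 CPM between libraries was smaller at E21 than at E19 in both directions of change. The median SD of log2 CPM between libraries was 0.24 at E21, 0.32 at E20 and 0.40 at E19 for the genes higher at E21. For the lower genes it was 0.28 at E21, 0.37 at E20 and 0.36 at E19, and for genes not called 0.30, 0.40 and 0.46 on these days. The SD was smaller at E21 than at E19 for 71.7% of all genes tested. Not all E19 libraries differed alike. The chi-square per degree of freedom was 6.85 to 11.5 for E19 pairs with replicate 1 or 2. It was 4.62 to 5.19 among E19 replicates 3, 5 and 6, beside 4.86 to 6.47 at E21. The E21 libraries also held more counts in all, 4791319 against 4528462 at E19 in 1 library fewer. The parts of depth, of the level of a gene and of single libraries in these spreads were not tested.

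Some genes of the deposited table were counted on 1 of the 2 days only. For 18 genes every E21 library held a count and no E19 library did, with pooled levels between 0.835 and 25.5 CPM at E21. On library totals, with a floor of 3 counts over the pooled group, they were at least 1.26-fold to at least 38.4-fold higher at E21. TMM factors, which were larger at E21 than at E19, were not applied here and would lower these bounds. None of the 18 passed the filter on low counts, so the test was not run on them. In the other direction, 7 genes were counted in every E19 library and in no E21 library, and 2 of these were tested. On library totals the 7 genes were at least 2.12-fold to at least 8.46-fold lower at E21. All 25 genes had a count in at least 1 E20 library, and 7 of the 18 and 1 of the 7 had counts in all 5 of them.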
